A study of Mus musculus with 6 samples.

Results

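Ly6c2-positive CD8 effector T cells were examined in MC38 tumours of mice with and without a Ctcf deletion in regulatory T cells. They were picked out by transcripts in a droplet count table: a productive T cell receptor beta chain, at least 2 unique molecular identifiers (UMIs, 1 per captured transcript) of Cd8a and Cd8b1 together, none of Cd4, at least 2 of Ly6c2, none of Havcr2, none of Tcf7, and not both of the cycling genes Mki67 and Top2a. This gave 2488 cells of 9664 CD8 T cells found by the same receptor, Cd8 and Cd4 criteria, and of 39424 cells that passed the quality limits. The cko libraries held 619, 343 and 551 of them in replicates 1, 2 and 3, and the ctr libraries held 378, 235 and 362.

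The cko mice carry a tamoxifen-inducible Ctcf knockout in regulatory T cells, and the ctr mice are wild type for Ctcf in those cells. The labels used here name neither the Cre driver, nor the tamoxifen schedule, nor the ages. All 6 samples come from subcutaneous tumours taken on day 25 after injection of wild-type MC38, a mouse colon adenocarcinoma line, and each library holds live CD45+ cells sorted from them and read as 5′ transcripts with paired receptor sequences. Each group has 3 samples called biological replicates, and p-values therefore rest on the variation among these 6 samples alone. The CD8 T cells themselves were not the target of the deletion.

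Ly6C2 is a small membrane-anchored protein of the Ly6 family. On mouse CD8 T cells it appears after activation and stays on effector and memory cells. Havcr2 encodes the receptor TIM-3, carried by cells with the terminal exhaustion program. The 2 genes were not exclusive here. Among non-cycling CD8 T cells without Tcf7, 2466 carried Havcr2 with at least 2 Ly6c2 UMIs, and 1033 carried Havcr2 without Ly6c2. Tcf7 encodes TCF-1, the transcription factor of stem-like CD8 T cells, and CTCF is a DNA-binding protein that, with cohesin, shapes chromatin loops. Ctcf lies at chr8:105636568-105682922 and Ly6c2 at chr15:75108158-75111970 (GRCm38).

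Per-library totals ran from 45322797 to 53473461 UMIs in cko and from 54224947 to 55515267 UMIs in ctr. Over the selected cells the medians were 6218, 6262 and 6527 UMIs per cell in cko replicates 1, 2 and 3, against 6933, 7762 and 6662 in ctr, so every ctr median lay above every cko median. Ctcf itself was measured at 79.5, 87.4 and 85.7 CPM (counts per 1e6 UMIs) in the selected cells of cko, against 58.2, 64.6 and 70.7 CPM in ctr, and its difference did not pass the test (log2 fold change 0.31, edgeR adjusted p = 0.127). In Foxp3-positive CD4 T cells of the same libraries Ctcf stood at 53.3, 69.9 and 62.5 CPM in cko, against 81.6, 76.1 and 97.1 CPM in ctr, from 20, 76 and 41 UMIs in cko and 82, 119 and 124 in ctr. Every cko library was below every ctr library in the Foxp3-positive cells, the cells the deletion was aimed at, on few counts.

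Most selected cells carried Cd8a, Ly6c2 and Ccl5, the markers given for them. Cd8a was detected in 98.0% of them (96.8 to 98.7% by sample) and Cd8b1 in 98.8%. The rule asked for at least 2 UMIs of these 2 genes together, so their detection follows largely from it. Ly6c2 was present in all by rule. Cd3e was detected in 99.4% and the chemokine gene Ccl5 in 85.7% (73.6 to 90.0%). Ccl5 was found in 87.4% of all CD8 T cells, so it does not set these cells apart. At the edge of the rule, the 160 cells with exactly 2 Ly6c2 UMIs had 5196 CPM of Ccl5, 807 CPM of Gzmb and 196 CPM of Bcl2, against 6725, 942 and 232 CPM in the 296 cells with exactly 1 Ly6c2 UMI that otherwise met the rule.

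Free or attached RNA of other cells was present. Of the selected cells, 7.27, 7.87 and 12.9% in cko replicates 1, 2 and 3, against 34.9, 22.1 and 14.6% in ctr, held at least 2 UMIs over 7 macrophage and monocyte genes (Lyz2, Csf1r, Cd14, C1qa, C1qb, C1qc and Apoe). With cells that carried more than 1 productive beta chain, 443 of 2488 cells (17.8%) were doublet candidates. They were kept, and gene counts are also given without them.

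The libraries cko 1 and cko 3 stood apart by their receptors. They shared 33 clonotypes, defined as identical V and J genes and CDR3 nucleotides in both chains, of 78 in cko 1 and 92 in cko 3, and these held 89.2% and 77.5% of the selected cells with both chains. Any other pair of libraries shared at most 1 clonotype. Their shared cell barcodes were few (71, or 0.993% of the smaller library, against 0.669 to 1.18% for other pairs), and their summed counts differed by a chi-square of 1.97 per degree of freedom, against 4.46 to 6.55 for the other pairs within a group. Whether both come from 1 animal is not stated, so the results below are also given with cko 1 and cko 3 added together as 1 sample.

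The CDR3 nucleotide sequences of the leading clone of each library are shown because a few clones hold a large part of these cells, and because the first of them is the one found in both cko 1 and cko 3. The next clone of ctr 2 is added because it has the same V and J genes in both chains as the leading clone of cko 2, and capitals mark the bases at which those chains differ. TRA genes lie on chromosome 14 and TRB genes on chromosome 6.
cko 1 and cko 3, TRAV16 with TRAJ43, alpha chain: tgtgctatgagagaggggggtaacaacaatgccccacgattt
cko 1 and cko 3, TRBV12-1 with TRBJ2-5, beta chain: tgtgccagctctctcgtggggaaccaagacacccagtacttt
cko 2, TRAV16N with TRAJ37, alpha chain: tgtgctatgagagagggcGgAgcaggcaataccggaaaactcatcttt
cko 2, TRBV19 with TRBJ2-7, beta chain: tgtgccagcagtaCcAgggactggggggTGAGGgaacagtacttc
ctr 2, next clone, TRAV16N with TRAJ37, alpha chain: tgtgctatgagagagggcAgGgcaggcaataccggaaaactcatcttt
ctr 2, next clone, TRBV19 with TRBJ2-7, beta chain: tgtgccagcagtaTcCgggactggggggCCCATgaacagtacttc
ctr 1, TRAV4D-4 with TRAJ34, alpha chain: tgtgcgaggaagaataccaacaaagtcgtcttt
ctr 1, TRBV5 with TRBJ2-7, beta chain: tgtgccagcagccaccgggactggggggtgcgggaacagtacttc
ctr 2, leading clone, TRAV4-4-DV10 with TRAJ50, alpha chain: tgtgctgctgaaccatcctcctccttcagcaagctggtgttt
ctr 2, leading clone, TRBV3 with TRBJ2-5, beta chain: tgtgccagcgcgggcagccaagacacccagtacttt
ctr 3, TRAV9D-3 with TRAJ12, alpha chain: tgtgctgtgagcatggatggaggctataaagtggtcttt
ctr 3, TRBV19 with TRBJ2-4, beta chain: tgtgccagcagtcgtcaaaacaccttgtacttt

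The clone shared by cko 1 and cko 3 held 209 selected cells in cko 1 and 145 in cko 3, which was 38.1% and 30.3% of those with both chains. It was spread over other CD8 states too: of its 1007 CD8 T cells in cko 1 and 862 in cko 3, only 20.8% and 16.8% met the rule, and 56.1% and 61.0% carried Havcr2 transcripts. In ctr, the leading clones held 49 of 366 (13.4%), 75 of 229 (32.8%) and 50 of 334 (15.0%) paired cells, and in cko 2 the leading clone held 25 of 322 (7.76%). Another clone of cko 2 was equally large. By share, the leading clone of cko 2 was the smallest of the 6 libraries, and those of cko 1, cko 3 and ctr 2 were the largest.

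The leading clone of cko 2 and the next clone of ctr 2, which held 19 selected cells, are alike in sequence though they come from different mice. Both join TRAV16N to TRAJ37 and TRBV19 to TRBJ2-7, and they differ at 2 of 48 alpha chain bases and 7 of 45 beta chain bases. No other pair among the leading clones printed for different groups had the same 4 genes. What these receptors bind was not measured.

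The first comparison asked whether deleting Ctcf in regulatory T cells altered how many CD8 T cells were of this kind. The selected cells made up 27.7, 23.4 and 25.0% of CD8 T cells in cko replicates 1, 2 and 3, against 23.7, 27.98 and 27.3% in ctr (Wilson 95% intervals 25.9 to 29.6, 21.3 to 25.6 and 23.3 to 26.9% in cko, and 21.7 to 25.8, 25.0 to 31.1 and 25.0 to 29.8% in ctr, covering counting error only). The groups overlapped, and the means of 25.4 ± 2.18% in cko and 26.3 ± 2.30% in ctr (SD, n = 3 each) differed by less than the spread between samples (exact two-sided permutation test, p = 0.7). With cko 1 and cko 3 added together the difference was -1.45 percentage points (exact permutation p = 0.4).

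That count, however, depends on how deeply each cell was read, because the rule asks for Ly6c2 to be seen and for Havcr2 and Tcf7 to be unseen. When every CD8 T cell was thinned to 2000 UMIs and the rule was read from the thinned counts, the share was 42.1, 36.4 and 39.9% in cko, against 27.4, 34.9 and 33.4% in ctr. Thinning left out 64 cko and 47 ctr CD8 T cells with fewer UMIs. The thinned groups did not overlap (39.5 ± 2.90% in cko and 31.9 ± 3.97% in ctr, SD, n = 3 each; exact permutation p = 0.1, the smallest that 3 samples against 3 can give). Thinning also hides Havcr2: a Havcr2 UMI was found in 54.0 ± 1.25% of CD8 T cells in cko and 38.9 ± 3.24% in ctr on full counts, and in 23.4 ± 1.62% in cko and 14.2 ± 1.24% in ctr after it, so the thinned shares take in cells that the full counts place elsewhere.

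Ly6c2 itself was found in more CD8 T cells of cko tumours. The share of all CD8 T cells with at least 2 Ly6c2 UMIs was 72.3, 72.7 and 72.5% in cko, against 54.5, 63.8 and 56.3% in ctr, so that every cko library lay above every ctr library (means 72.5 ± 0.197% in cko and 58.2 ± 4.95% in ctr, SD, n = 3 each; exact permutation p = 0.1). After thinning to 2000 UMIs it was 58.8, 51.7 and 56.2% in cko, against 36.6, 45.6 and 41.6% in ctr (exact permutation p = 0.1). With cko 1 and cko 3 added together the difference was 14.4 points (exact permutation p = 0.2, the smallest that 2 samples against 3 can give). In Foxp3-positive CD4 T cells pooled over libraries, the thinned share was 1.96% in cko and 2.84% in ctr. Over all CD8 T cells pooled it was 56.1% in cko and 40.4% in ctr. In pooled B cells it was 56.2% of 176 in cko and 39.1% of 23 in ctr. Before thinning, cko replicates 1, 2 and 3 held 8, 176 and 9 B cells, so the cko value rests mostly on cko 2. In pooled macrophages the thinned share was 61.8% in cko and 53.8% in ctr. On full counts the macrophage libraries overlapped, at 75.6, 77.4 and 77.0% in cko, against 53.8, 77.7 and 62.8% in ctr. In monocyte-like cells, where the gene is known to be expressed, the thinned share was 75.4% in cko and 74.5% in ctr. The part of RNA from other cells in the CD8 T cell difference was not tested.

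Most of this difference lay in cells that carried Ly6c2 together with Havcr2, which the rule leaves out. They were 30.4, 30.6 and 32.3% of CD8 T cells in cko, against 15.99, 19.5 and 15.7% in ctr, with no overlap (31.1 ± 1.01% in cko and 17.1 ± 2.13% in ctr, SD, n = 3 each; exact permutation p = 0.1). CD8 T cells with Gzmk and without Ly6c2, Havcr2 or Tcf7 were fewer in every cko library (exact permutation p = 0.1). They were 1.66, 2.25 and 2.23% in cko, against 6.46, 3.45 and 9.50% in ctr. This state asks for Ly6c2 and Havcr2 to be unseen, and both were found in more CD8 T cells of cko. Its share is thus not independent of those differences, and it was not read from thinned counts. The states with Havcr2 alone (exact permutation p = 0.5), with Tcf7 alone (p = 0.7) and in cycle (p = 0.6) had overlapping shares. Over the 9 exact permutation tests of shares on full counts the smallest adjusted p was 0.225, and with cko 1 and cko 3 added together no share can fall below p = 0.2.

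**Figure D1:**
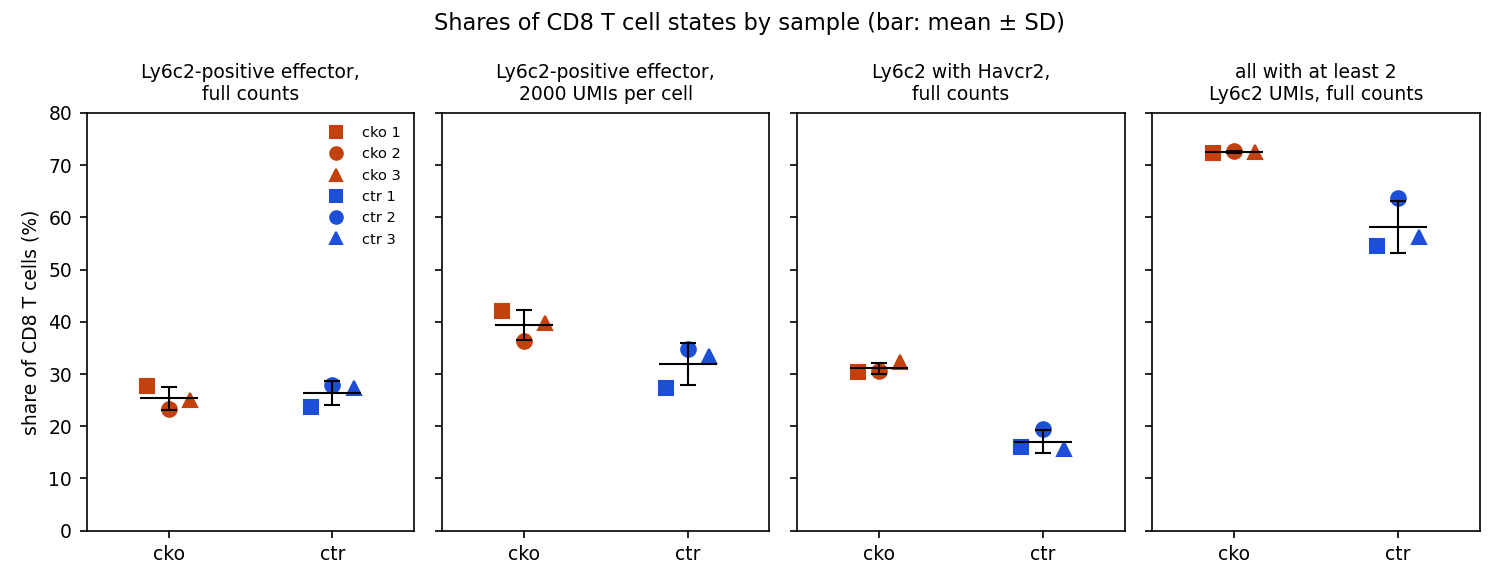
Share of CD8 T cells (%, vertical axis) in each library, cko left and ctr right in each panel, with the mean and SD of the 3 libraries. The selected cells overlap between groups on full counts (23.4 to 27.7% in cko, 23.7 to 27.98% in ctr), and the groups are apart after thinning, for Ly6c2 with Havcr2, and for all CD8 T cells with at least 2 Ly6c2 UMIs (72.3 to 72.7% in cko, 54.5 to 63.8% in ctr).

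The selected cells were next set beside 3 other non-cycling CD8 states without Ly6c2: 1033 Havcr2-positive cells, 377 Gzmk-positive cells and 177 Tcf7-positive cells. Since the rule chose cells by their transcripts, these levels are descriptions with no test, given as the mean over 6 samples of CPM in summed counts. The selected cells carried less Prf1, Ifng and Lag3 than Havcr2-positive cells in every sample, and more of each than Tcf7-positive cells. Depth also differed, with medians of 6582 UMIs per cell here, 7830 in Havcr2-positive, 6445 in Gzmk-positive and 5779 in Tcf7-positive cells.

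Among killing genes, Prf1, which encodes the pore-forming protein perforin, stood at 225 CPM here, 678 CPM in Havcr2-positive, 316 CPM in Gzmk-positive and 66.5 CPM in Tcf7-positive cells. Gzmb, the granzyme of fully armed killers, stood at 1193, 1644, 1070 and 196 CPM in the same order, and was lower here than in Havcr2-positive cells in all 6 samples. Gzma went the other way, at 215 CPM here and 29.8 CPM in Havcr2-positive cells, higher here in 6 of 6 samples. Its samples here ranged from 77.3 to 458 CPM, however. Gzma averaged 180 CPM in Gzmk-positive and 166 CPM in Tcf7-positive cells, higher here in 4 and 5 of 6 samples. The cytokine gene Ifng (409 CPM here and 835 CPM in Havcr2-positive cells) and the chemokine gene Ccl3 (279 and 1311 CPM) were lower here in all 6 samples.

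Checkpoint and activation genes differed in their order across these states. Lag3 averaged 454 CPM here and 840 CPM in Havcr2-positive cells, Ctla4 350 and 586 CPM, and Tnfrsf9, the 4-1BB receptor, 357 and 880 CPM, each lower here in 6 of 6 samples. Tox, a factor of the exhaustion program, was lower here than in Havcr2-positive and Gzmk-positive cells in all 6 samples (101, 162 and 213 CPM). Of genes of circulating or stem-like cells, S1pr1 averaged 14.2 CPM here and 97.3 CPM in Tcf7-positive cells, and Slamf6 12.4 and 159 CPM. Klf2, a factor of T cell quiescence and circulation, averaged 227 CPM here, 108 CPM in Havcr2-positive and 494 CPM in Tcf7-positive cells, and Il7r 158, 121 and 244 CPM. Both were higher here than in Havcr2-positive cells and lower than in Tcf7-positive cells in all 6 samples. Ccr7, the lymph node homing receptor, averaged 120.3 CPM here, 112 CPM in Havcr2-positive and 338 CPM in Tcf7-positive cells. Klrg1, a marker of short-lived effector cells in infection, averaged 9.71 CPM, and S1pr5, an egress receptor of such cells, 0.787 CPM.

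Homing receptors differed in both directions. Ccr2, the receptor for the monocyte chemokine CCL2, averaged 79.5 CPM here and 22.8 CPM in Havcr2-positive cells. Cxcr3, the receptor for interferon-induced chemokines, averaged 105 and 22.9 CPM, and both were higher here in 6 of 6 samples. In Gzmk-positive and Tcf7-positive cells Ccr2 averaged 96.3 and 72.5 CPM and Cxcr3 82.9 and 209 CPM, so neither was highest here. Cxcr6, a receptor of tumour-resident T cells, was lower here than in Havcr2-positive cells (708 and 890 CPM) and above Tcf7-positive cells (245 CPM) in all 6 samples. Itga1, the collagen-binding integrin chain CD49a, averaged 46.3 CPM here, against 25.3, 22.1 and 4.27 CPM in the Havcr2-, Gzmk- and Tcf7-positive cells. Klrk1, which encodes the activating receptor NKG2D, averaged 471 CPM here, against 338, 276 and 224 CPM, and was highest here in all 6 samples.

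Genes were ranked by the ratio of their level here to that in the highest of the other 3 states. The 10 leading genes were Ly6c2, Lyz2, Apoe, Cxcl2, Il1b, Ifitm3, C1qa, Cd14, Tgfbi and Jaml. Ly6c2 was required here and absent by rule from the other 3 states. Its first place, with or without doublet candidates, follows from that rule. Of the 10, 4 stand in the macrophage, monocyte, dendritic and neutrophil lists. The alternative without doublet candidates was added after the data were seen. In it, Lyz2 averaged 12.5 CPM, against 293 CPM with candidates, and Apoe 8.35 CPM, against 253 CPM. Both are among the genes that define the candidates, so their falls follow from that definition. Of the leading genes outside the definition, Cxcl2 averaged 14.4 CPM without candidates and 181 CPM with them, and Il1b 23.9 and 222 CPM. Tgfbi averaged 5.61 and 54.5 CPM in that order, and Ifitm3 114 and 236 CPM. Ly6c2 (2949 and 2897 CPM) and Jaml (268 and 257 CPM) did not fall. Without doublet candidates the leading genes were Ly6c2, Jaml, Ifitm3, Plac8, Klrk1, Bag3, Slfn8, Ifitm2, Klre1 and Fgl2. Jaml, an adhesion molecule of the junctional family, averaged 268 CPM there, 1.90 times the highest other state, and Klrk1 492 CPM, 1.44 times.

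**Figure D2:**
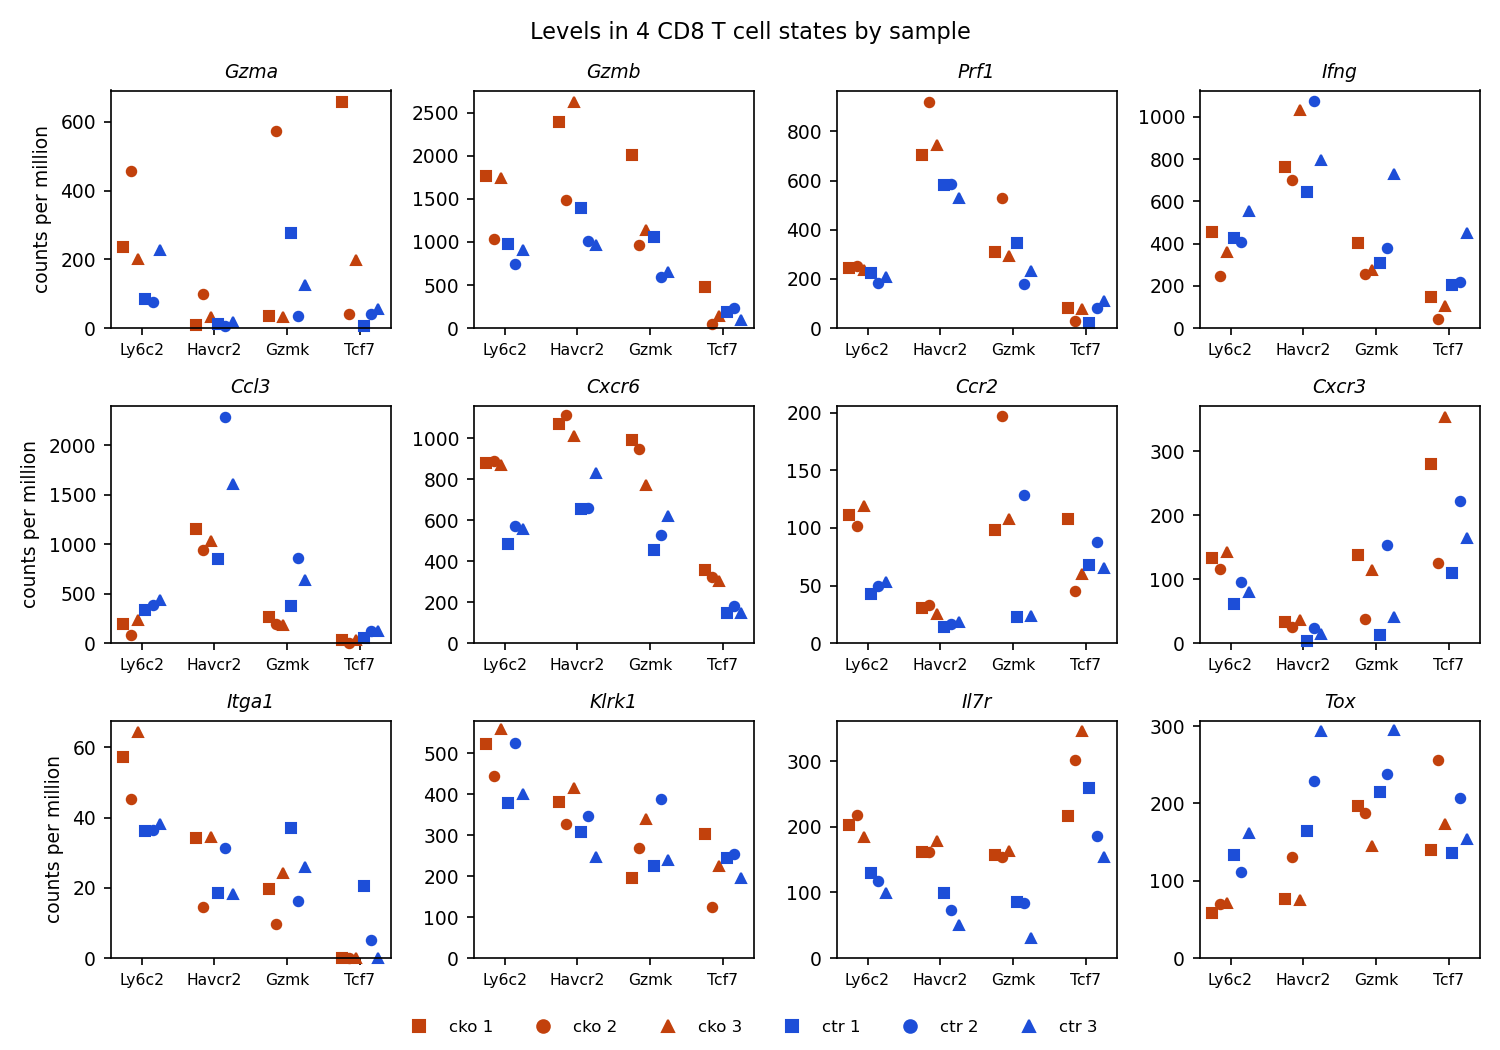
CPM (vertical axis) of 12 genes in summed counts of each library, for the selected cells (Ly6c2) and 3 other CD8 states, with cko libraries left of ctr libraries in each state. Prf1, Ifng and Ccl3 are lower in the selected cells than in Havcr2-positive cells in every library, and Ccr2, Cxcr3, Itga1 and Klrk1 are higher. On average Ccr2 is highest in Gzmk-positive and Cxcr3 in Tcf7-positive cells.

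Receptor clonality, which the rule did not use beyond the presence of a beta chain, was compared in the 2278 selected cells with both chains. Clonality was measured by the chance that 2 cells drawn from a sample share a clonotype. It was 16.3, 2.78 and 11.0% in cko replicates 1, 2 and 3, against 3.58, 12.6 and 3.62% in ctr, so 1 cko library was the lowest of all and 1 ctr library lay among the cko values (10.0 ± 6.81% in cko and 6.60 ± 5.20% in ctr, SD, n = 3 each; exact permutation p = 0.7). Cells of clonotypes with at least 3 CD8 T cells made up 92.7, 85.1 and 91.0% in cko, against 86.1, 83.0 and 81.4% in ctr (89.6 ± 3.997% and 83.5 ± 2.36%; exact permutation p = 0.2). The largest clonotype held 25.4 ± 15.8% in cko and 20.4 ± 10.8% in ctr (exact permutation p = 0.9). Adjusted over these 3 measures no p fell below 0.6, and with cko 1 and cko 3 added together the exact permutation p-values were 0.8, 0.4 and 1.

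Clonality was also compared with the other states within each sample. The chance that 2 cells share a clonotype was 8.32 ± 5.74% here and 29.5 ± 24.2% in Havcr2-positive cells (SD, n = 6), lower here in 6 of 6 samples. It was 0.791 ± 0.351% in Tcf7-positive cells, of which only 20 to 37 per sample had both chains, and higher here in 6 of 6 samples. Expanded clonotypes held 86.5 ± 4.45% of cells here, 97.3 ± 1.19% of Havcr2-positive and 34.4 ± 12.2% of Tcf7-positive cells, again in 1 direction in all 6 samples. Each of these differences had an exact paired permutation p = 0.031, the smallest that 6 samples can give, and an adjusted p of 0.0562 over the 9 comparisons, which misses 0.05. From Gzmk-positive cells no measure differed beyond the spread (exact paired permutation p = 0.344, 0.531 and 0.312), and with cko 1 and cko 3 added together the smallest possible p was 0.0625.

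The clones were shared between states. Cells of clonotypes that also held Havcr2-positive CD8 T cells, with or without Ly6c2, made up 91.8, 82.6 and 91.0% of the paired selected cells in cko, against 78.7, 81.7 and 74.0% in ctr. Such a share depends on how many cells of the other state were read, which was not corrected for. Paired cells with Havcr2 numbered 925, 615 and 959 in cko, against 488, 278 and 389 in ctr. Clonotypes also found among cycling CD8 T cells held 78.5, 72.7 and 79.5% in cko, against 81.1, 74.7 and 60.5% in ctr. Sharing with Tcf7-positive cells varied more, at 53.3, 13.98 and 44.1% in cko, against 21.6, 51.1 and 14.1% in ctr. The high values there were those of cko 1, cko 3 and ctr 2, the 3 libraries with the largest leading clones.

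**Figure D3:**
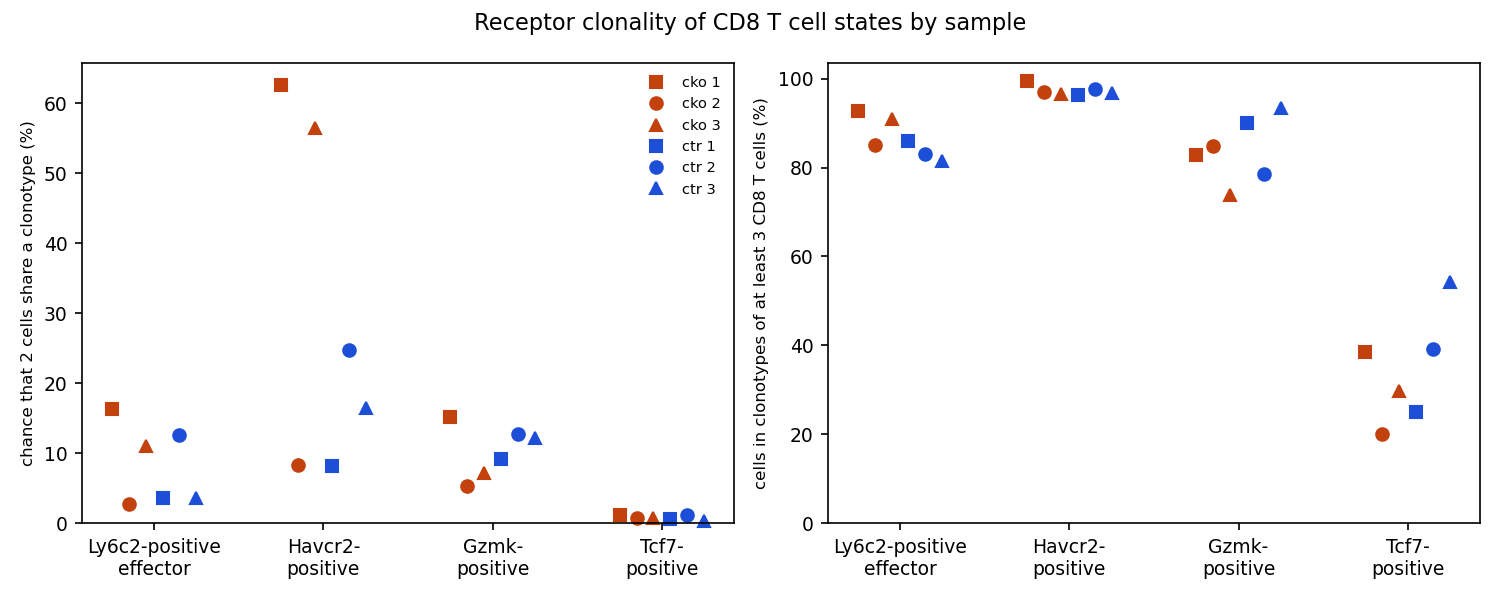
Chance that 2 cells share a clonotype (left, %) and share of cells in clonotypes of at least 3 CD8 T cells (right, %) for 4 CD8 states, with cko libraries left of ctr libraries in each state. The selected cells lie below the Havcr2-positive cells and above the Tcf7-positive cells of the same library on both measures.

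The main comparison asked which genes differed between cko and ctr within the selected cells. Counts were summed over the cells of each library, and of 9434 genes tested 170 were higher (1.80%) and 192 lower (2.04%) in cko, 362 in all (3.84%), at an edgeR adjusted p under 0.05. With cko 1 and cko 3 added together, 60 were higher (0.626%) and 50 lower (0.522%) of 9586 tested, 110 in all (1.15%), and 108 of these were among the 362. The samples of the groups did not overlap for 2518 genes (26.7%). Without doublet candidates 335 genes passed, 265 of them among the 362. In summed counts, fewer transcripts per cell and fewer cells with a transcript cannot be told apart. Of the 87 called genes considered by name, 34 share exon bases with another annotated gene, and whether the counting used strand is not stated in the labels, so reads of such overlapping genes cannot be told apart.

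Genes of migration and adhesion rose in cko. Ccr2 had 111, 102 and 119 CPM in cko replicates 1, 2 and 3, against 42.7, 49.997 and 53.2 CPM in ctr. All cko libraries lay above all ctr libraries, and the log2 fold change was 1.11 (SE 0.113, edgeR adjusted p = 0.000274, and 0.00331 with cko 1 and cko 3 added together). Cxcr6 had 878, 890 and 869 CPM in cko, against 485, 572 and 556 CPM in ctr (log2 fold change 0.64, adjusted p = 0.00241 and 0.0228). The groups overlapped in neither gene, and both passed under each of 15 alternatives. Both lie on chromosome 9, at chr9:124101950-124113557 for Ccr2 and chr9:123806475-123811760 for Cxcr6 (GRCm38).

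Gpr183, a receptor for oxysterols that positions lymphocytes, had 246, 198 and 215 CPM in cko, against 101, 85.9 and 96.7 CPM in ctr (log2 fold change 1.14, adjusted p = 0.000274, and 0.00331 with cko 1 and cko 3 added together). Itgb7, the integrin chain that pairs with alpha 4 or alpha E, had 211, 124 and 182 CPM in cko, against 51.9, 63.6 and 73.8 CPM in ctr (log2 fold change 1.39, adjusted p = 0.0114 and 0.0351). Both were higher in every cko library than in any ctr library. Cxcr3 (log2 fold change 0.66), Itgal (0.70), the leukocyte integrin chain CD11a, and Itga1 (0.53) also passed, but not with cko 1 and cko 3 added together (adjusted p = 0.107, 0.145 and 0.196). Of the 22 tested chemokine and trafficking receptors, 8 rose and 1 fell, against 1.80% and 2.04% of all tested genes. Their median log2 fold change was 0.53, against 0.0038 over all tested genes, and 5 rose and 1 fell with cko 1 and cko 3 added together. Ccr2 is also a gene of monocytes, and without doublet candidates its adjusted p was 2.05e-05.

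Lmna, which encodes the A-type lamins of the nuclear envelope, showed the largest positive change among called genes with at least 20 CPM in the higher group and separate groups. It had 26.6, 21.1 and 35.3 CPM in cko, against 4.55, 6.57 and 3.11 CPM in ctr (log2 fold change 2.51, SE 0.269, adjusted p = 0.00035 and 0.00331 with cko 1 and cko 3 added together). Emb, which encodes the cell surface glycoprotein embigin, had 219, 185 and 237 CPM in cko, against 83.0, 61.1 and 73.0 CPM in ctr (log2 fold change 1.48, adjusted p = 0.000123 and 0.00212). In both genes the cko libraries were all above the ctr libraries. Arrdc3, an arrestin-like protein (1.70), Itgb3, the beta 3 integrin chain (1.63), Dgat1, an enzyme of triglyceride synthesis (1.28), and Plaur, the urokinase receptor (1.11), rose too and passed both ways. Serpinb1a (1.59), Irs2 (1.26) and Pde4d (1.14) passed only with the 6 libraries kept apart (adjusted p = 0.0502, 0.0915 and 0.0503 with cko 1 and cko 3 added together).

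Il12rb2, Il7r and Ifngr1, receptor chains for cytokines, rose. Il12rb2, the signalling chain of the interleukin-12 receptor, had 122, 105 and 121 CPM in cko, against 72.9, 61.6 and 56.3 CPM in ctr (log2 fold change 0.79, adjusted p = 0.00332, and 0.0317 with cko 1 and cko 3 added together). Il7r, the interleukin-7 receptor chain, had 202, 217 and 185 CPM in cko, against 129, 117 and 98.6 CPM in ctr (log2 fold change 0.73, adjusted p = 0.00574 and 0.0316). Ifngr1, the interferon gamma receptor chain, had 737, 704 and 771 CPM in cko, against 504, 365 and 411 CPM in ctr (log2 fold change 0.71, adjusted p = 0.00609 and 0.0477). None of the 3 overlapped between groups, though Il7r did not pass when each clonotype had equal weight (adjusted p = 0.287). Of 34 tested cytokine receptor and signalling genes, 5 rose, Ifnar1 also among them, and none fell, against 1.80% and 2.04% of all tested genes. Their median log2 fold change was 0.07, and 3 rose with cko 1 and cko 3 added together.

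Some interferon response genes were called. Over all tested genes 1.80% were higher in cko, and 0.626% with cko 1 and cko 3 added together. Of 31 tested interferon gamma response genes, 27 had a positive fold change (median 0.27) and 5 rose, among them Irgm2, Gbp2, Ifngr1 and Cd274, but only 1 rose with cko 1 and cko 3 added together. Of 38 type I interferon response genes, 30 were positive (median 0.25) and 1, Ly6a, rose. Their summed level was uneven within cko, at 12085 CPM at the most and 6814 CPM at the least, against 6415 to 9222 CPM in ctr, so that the groups overlapped. Ly6a, a relative of Ly6c2 known as Sca-1, had 1797, 1375 and 1768 CPM in cko, against 950, 1247 and 1140 CPM in ctr (log2 fold change 0.49, adjusted p = 0.0357, and 0.178 with cko 1 and cko 3 added together).

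Zfp683 and Tox, transcription factors of residency and exhaustion, fell. Zfp683, which encodes Hobit, a factor of tissue-resident T cells, had 9.69, 13.8 and 15.8 CPM in cko, against 41.3, 66.2 and 49.7 CPM in ctr (log2 fold change -2.07, SE 0.205, adjusted p = 0.000306, and 0.00212 with cko 1 and cko 3 added together). Tox had 57.9, 70.2 and 71.7 CPM in cko, against 133, 111 and 162 CPM in ctr (log2 fold change -1.11, SE 0.137, adjusted p = 0.00103 and 0.0119), and 0.0797 when each clonotype had equal weight. In neither gene did the groups overlap. Of 19 tested exhaustion and checkpoint genes none rose and 4 fell, against 1.80% and 2.04% of all tested genes. The 4 were Tox and the receptors Cd244a, Cd160 and Tigit. The median log2 fold change of the list was -0.10, and 2 fell with cko 1 and cko 3 added together. Pdcd1, which encodes PD-1 (0.35, adjusted p = 0.239), Lag3 (-0.08, 0.776) and Ctla4 (0.26, 0.245) did not pass. Of 15 residency genes 2 rose, Cxcr6 and Itga1, and 2 fell, Zfp683 and Ahr (median -0.04), and 1 in each direction passed with cko 1 and cko 3 added together.

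Bcl2, the survival factor that blocks mitochondrial cell death, fell. It had 140, 147 and 161 CPM in cko, against 377, 268 and 267 CPM in ctr, with a gap between the groups (log2 fold change -1.11, SE 0.144, adjusted p = 0.00205, and 0.0231 with cko 1 and cko 3 added together). It passed under each of 15 alternatives, with an adjusted p of 8.61e-05 when each clonotype had equal weight. Of 22 tested survival and death genes it was the one that fell, and Fasl, the death ligand, the one that rose. Among all tested genes 2.04% fell and 1.80% rose. The median log2 fold change of the list was -0.04, and Fasl did not pass with cko 1 and cko 3 added together. Bcl2 and Il7r, both of which mark long-lived T cells, thus moved in opposite directions here. Of 20 tested memory, stem-like and homing genes, 4 rose, Lef1, Il7r, Satb1 and Cd28, and 2 fell, Bcl2 among them (median 0.11), and 2 in each direction passed with cko 1 and cko 3 added together.

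Myc and part of a list of growth genes fell. Myc, the factor that drives growth of activated T cells, had 20.1, 33.6 and 28.6 CPM in cko, against 77.4, 91.4 and 104 CPM in ctr (log2 fold change -1.83, SE 0.168, adjusted p = 0.000274, and 0.00212 with cko 1 and cko 3 added together). Every ctr library was well above every cko library. In a list of 54 ribosome biogenesis and growth genes, drawn up after values were seen, 18 fell, among them Srm, Nop16, Fbl and Ranbp1. Odc1 was the 1 that rose. Among all tested genes 2.04% fell and 1.80% rose, but this list was chosen with its values known. Its median log2 fold change was -0.43, and 5 fell and 1 rose with cko 1 and cko 3 added together. The summed level of this list was 4141 to 4308 CPM in cko, against 5216 to 5466 CPM in ctr. Srm, an enzyme of polyamine synthesis, had 19.1, 14.6 and 17.4 CPM in cko, against 39.2, 34.8 and 35.3 CPM in ctr (log2 fold change -1.16, adjusted p = 0.00122). Odc1, the enzyme one step before Srm in that pathway, had 356, 326 and 375 CPM in cko, against 223, 179 and 234 CPM in ctr (log2 fold change 0.66, adjusted p = 0.00618 and 0.0481 with cko 1 and cko 3 added together).

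Replication genes fell in part. Mcm3, a subunit of the replicative helicase, had 21.9, 25.8 and 19.5 CPM in cko, against 55.7, 54.0 and 41.9 CPM in ctr (log2 fold change -1.27, adjusted p = 0.00103, and 0.0144 with cko 1 and cko 3 added together). Of 23 tested replication and cell cycle genes, 5 fell, Mcm2, Mcm3, Mcm5, Dut and Pcna, and 1 rose, Hmgb2. Among all tested genes 2.04% fell and 1.80% rose. In this list 21 of 23 had a negative fold change (median -0.46), and 3 fell with cko 1 and cko 3 added together. Cells with both Mki67 and Top2a had been left out by the rule. The DNA repair enzyme gene Apex1 (-1.43) and Mettl1 (-1.32), which encodes a transfer RNA methyltransferase, fell and passed both ways, as did Chn2 (-1.95), Ephx1 (-1.28), Gm42047 (-1.21), Kcnq5 (-1.19) and Nek6 (-1.18). With equal weight per clonotype Ephx1, Gm42047, Kcnq5, Nek6 and Mettl1 did not pass (adjusted p = 0.902, 0.613, 0.236, 0.159 and 0.0743), nor did Plaur and Odc1 (0.889 and 0.275). Tmcc3 (-1.56) did not pass with cko 1 and cko 3 added together (adjusted p = 0.124).

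**Figure D4:**
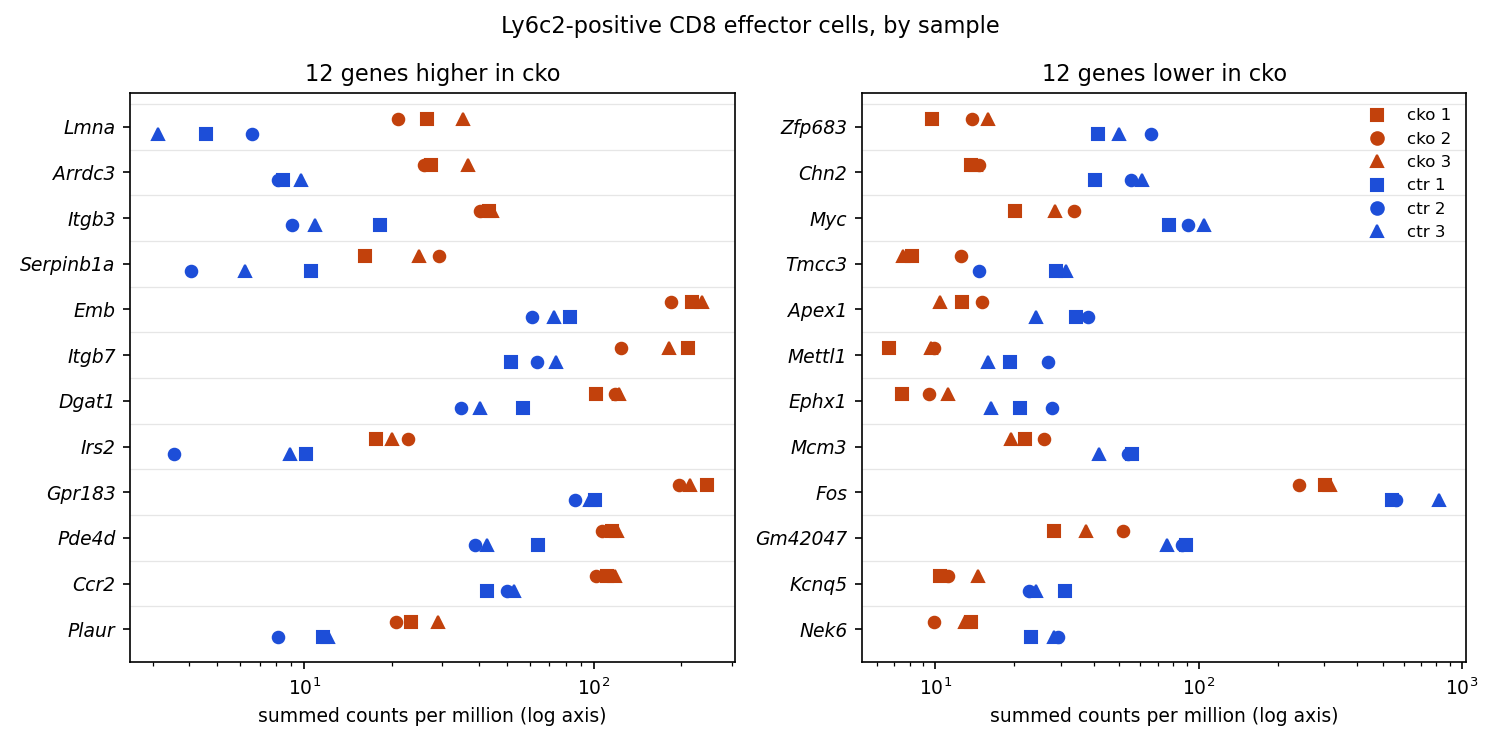
CPM in summed counts (log axis) of the 12 genes with the largest positive and the 12 with the largest negative fold change among called genes with at least 20 CPM in the higher group and separate groups, by library, with cko drawn above ctr for each gene. All 3 cko libraries lie on one side of all 3 ctr libraries for each gene, which the choice of these genes required, and for Lmna they lie at 21.1 to 35.3 CPM in cko and 3.11 to 6.57 CPM in ctr.

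Fos fell, as did some genes of tissue stress. Fos, an immediate early factor, had 302, 242 and 316 CPM in cko, against 542, 563 and 817 CPM in ctr (log2 fold change -1.23, adjusted p = 0.00291, and 0.0234 with cko 1 and cko 3 added together), but its adjusted p was 0.0574 without doublet candidates. Among all tested genes 2.04% fell and 1.80% rose. Of 27 tested genes of receptor signal and immediate early response, Myc and Fos fell and none rose (median -0.14). Genes known to be induced when tissue is dissociated moved with them: of 24 tested, 5 fell, Fos, Zfp36, Dusp1, Hsp90ab1 and Hspe1, and none rose (median log2 fold change -0.58), and 3 fell with cko 1 and cko 3 added together. The summed level of that list was 13582 to 16923 CPM in cko, against 18566 to 27220 CPM in ctr, without overlap. Its part in the falls of Fos, Myc and the growth genes was not tested.

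Genes of killing were called in both directions. Over all tested genes 3.84% were called, and 1.15% with cko 1 and cko 3 added together. Of 22 tested cytotoxic genes, Fasl rose and Cst7 fell (median log2 fold change 0.09), and none passed with cko 1 and cko 3 added together. Gzmb had 1762, 1030 and 1741 CPM in cko, against 972, 744 and 910 CPM in ctr, so the groups did not overlap, yet the spread within cko was wide and it did not pass (log2 fold change 0.71, SE 0.229, adjusted p = 0.166). Prf1 (0.17, adjusted p = 0.4), Gzmk (0.64, 0.101), Gzma (1.12, 0.419) and Nkg7 (-0.25, 0.123) did not pass either. Of 12 tested effector cytokines and chemokines 1 fell, Csf2 (median -0.41), and none passed with cko 1 and cko 3 added together. Ifng (-0.46, adjusted p = 0.351), Ccl3 (-1.24, 0.183), Ccl4 (-0.68, 0.316) and Ccl5 (0.60, 0.298) did not pass. Ly6c2 among the selected cells, whose lower end the rule fixed, had 3889, 2553 and 3709 CPM in cko, against 1914, 2516 and 2801 CPM in ctr, with cko 2 among the ctr values (log2 fold change 0.42, adjusted p = 0.266).

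Of 28 tested genes of short-lived effector and circulating cells, 7 rose and 1 fell, against 1.80% and 2.04% of all tested genes. The 7 were Anxa1, Lgals3, Itgal, Emp3, Crip1, Ly6a and S100a10. The median log2 fold change of the list was 0.12, with 1 gene in each direction when cko 1 and cko 3 were added together. Lgals3, which encodes galectin-3, had 776, 623 and 679 CPM in cko, against 330, 444 and 285 CPM in ctr (log2 fold change 0.90, adjusted p = 0.0158, and 0.0588 with cko 1 and cko 3 added together). Of 35 transcription factors of CD8 fate, Lef1, Hif1a, Satb1 and Nfil3 rose and Zfp683 and Tox fell (median 0.16), and 2 in each direction passed with cko 1 and cko 3 added together. Tbx21, which encodes T-bet, was at 136, 108 and 144 CPM in cko, against 111, 124 and 136 CPM in ctr (log2 fold change -0.01, adjusted p = 0.986), and Eomes did not pass (0.12, 0.765). Of 16 tested killer lectin receptors and partners, 3 fell, Klrb1c, Cd244a and Cd160 (median -0.64), and 1 fell with cko 1 and cko 3 added together. Cd244a and Cd160 are not lectins. A positive fold change was found for 6 of the 16, among them Klrc1 (0.36), Klrd1 (0.09), Klrk1 (0.15) and Klrg1 (0.87), which did not pass. Hif1a was the 1 gene of 26 for glycolysis and hypoxia that rose (log2 fold change 0.67, adjusted p = 0.00291, median of the list -0.12), and none of 26 oxidative phosphorylation genes (median -0.03) or of 20 class I presentation genes (median 0.11) passed.

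**Figure D5:**
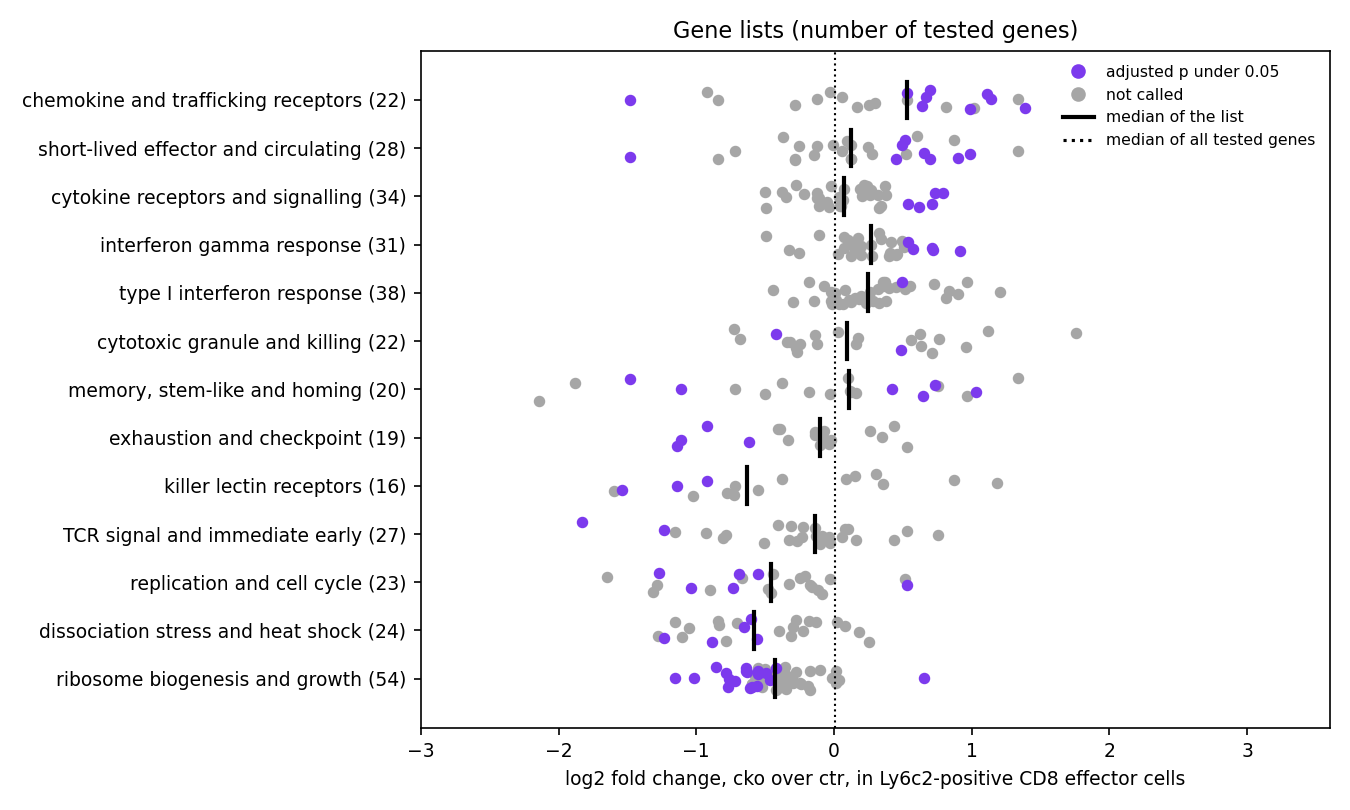
Log2 fold change of cko over ctr (horizontal axis) for each tested gene of 13 lists, coloured where the edgeR adjusted p was under 0.05, with the median of each list as a bar and that of all tested genes as a dotted line. The chemokine and trafficking receptors have the highest median (0.53) of the lists drawn. The list of killer lectin receptors, which also holds partners that are not lectins, has the lowest (-0.64).

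Transcripts of other cell types were counted in the same sums. None of 20 tested macrophage and monocyte genes passed (median log2 fold change -0.65), and their summed level was 1780 to 2467 CPM in cko, against 1997 to 4327 CPM in ctr. Dendritic and neutrophil genes summed to 987 to 1475 CPM in cko, against 1183 to 4143 CPM in ctr, with none of 6 called (median -1.07). Treg genes summed to 1206 to 1657 CPM in cko, against 1199 to 1580 CPM in ctr, with none of 8 called (median -0.11). Among all tested genes 2.04% fell and 1.80% rose. Of NK genes 1 of 5 fell, Klrb1c (median -0.38), and of gamma delta genes 1 of 2 rose, Cd163l1, at 3.73, 3.88 and 3.897 CPM in cko, against 0.35, 0.505 and 0 CPM in ctr. With cko 1 and cko 3 added together neither list held a called gene, and Cd163l1 did not pass the filter on low counts. B cell genes (2 tested, median 0.57) and tumour genes (1 tested, -0.53) gave no call, and the tumour genes Krt8, Krt19, Cldn4 and Cldn7 were at 0 in all 6 libraries. Their part in the fold changes above was not tested, beyond the counts without doublet candidates.

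The last comparison asked whether the cko over ctr change differed between the selected cells and another CD8 state, by a state and genotype interaction with each sample as a block. Against Havcr2-positive cells 11 of 9411 genes passed (0.117%), against Gzmk-positive cells 1 of 8798 (0.0114%), which was a receptor segment, and against Tcf7-positive cells 5 of 8449 (0.0592%). At an unadjusted p under 0.05 the counts were 616, 432 and 372. With cko 1 and cko 3 added together the calls were 2, 3 and 13. The changes of Ccr2, Cxcr6, Lmna, Zfp683, Myc, Bcl2 and Tox were therefore not shown to be particular to these cells (smallest interaction adjusted p = 0.197, for Tox against Tcf7-positive cells). Id3, an inhibitor of E proteins found in stem-like cells, was the clearest difference: it had 4.72, 15.5 and 8.83 CPM here in cko, against 18.2, 18.7 and 57.1 CPM in ctr, and 113, 199 and 185 CPM in Tcf7-positive cells of cko, against 109, 77.8 and 110 CPM in ctr. The difference of the log2 fold changes was -2.44 (SE 0.409, adjusted p = 0.00128, and 7.61e-05 with cko 1 and cko 3 added together).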

How the data were processed

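Gene and cell barcode tables with receptor contigs were used as deposited by the authors for 6 libraries. Their values are counts of UMIs per gene and cell, made with Cell Ranger 7.0.0 against mm10, per the submitters' processing notes. Cells with at least 300 genes, 500 UMIs and at most 10% mitochondrial UMIs were kept. No doublet caller was run, and cells with at least 2 myeloid UMIs or more than 1 productive beta chain were doublet candidates, left out in an alternative. Counts were summed per library and state and tested with edgeR 4.0.16 (quasi-likelihood, TMM, genes passing filterByExpr, Benjamini-Hochberg over all tested genes, threshold 0.05) in R 4.3.3. DESeq2 1.42.0, another scaling, no filter, other Ly6c2 limits, equal weight per clonotype, merged cko 1 and cko 3, a replicate block and left-out libraries were alternatives. Shares were tested by exact two-sided permutation over samples, after thinning to 2000 UMIs as well. Intervals cover counting error only. On simulated data for the cko over ctr test with 9294 genes, 83 of 100 genes changed 2-fold and 97 of 100 changed 4-fold were found, with 16 of 9094 unchanged genes called.

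The cells and gene lists were chosen with earlier results of these data known, and the ribosome biogenesis list after values were seen. Named genes were a fixed set of key genes, the 12 largest changes in each direction among called genes with at least 20 CPM and separate groups, up to 4 genes per interaction, and the leading genes across states. Gene positions come from GENCODE vM21 (GRCm38), in which 32235 of 32285 gene IDs were found. Some genes of the lists are counted but not reported here by name.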

Additional observations from a re-analysis of the deposited data

Results flagged for a closer look

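The genotype effect differed between the Ly6c2-positive effector cells and Havcr2-positive cells of the same libraries for 4 genes named by rule, by edgeR's interaction test. The difference of log2 fold changes was -1.24 for Cx3cr1, the fractalkine receptor gene (adjusted p = 0.0404, and 0.134 with cko 1 and cko 3 added together). Cx3cr1 had 25.6, 72.8 and 31.4 CPM in the effector cells of cko, against 61.0, 87.9 and 64.5 CPM in ctr, and 61.9, 89.8 and 60.8 CPM in Havcr2-positive cells of cko, against 52.3, 55.8 and 53.7 CPM in ctr. It was 1.15 for the histone gene Hist1h2bc (adjusted p = 0.0164, and 0.012 merged), 0.76 for the interferon-induced gene Isg15 (0.0404 and 0.134) and 0.64 for Zfp36l2, an RNA decay factor (0.0421 and 0.134). For Isg15 the cko libraries had 673, 234 and 642 CPM in the effector cells, against 185, 431 and 469 CPM in ctr, so the groups overlapped.

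Against Tcf7-positive cells the difference was 4.69 for Gm156 (adjusted p = 0.0154), 2.94 for the interferon-induced gene Rsad2 (0.0139) and -2.44 for Id3 (0.00128). Gm156 had 139, 89.6 and 110 CPM in the effector cells of cko, against 104, 112 and 237 CPM in ctr, and 5.399, 0 and 0 CPM in Tcf7-positive cells of cko, against 95.3, 20.7 and 69.9 CPM in ctr. Rsad2 had 99.3, 28.4 and 90.1 CPM in the effector cells of cko, against 23.5, 38.9 and 57.1 CPM in ctr, and 5.399, 11.4 and 16.1 CPM in Tcf7-positive cells of cko, against 27.2, 51.8 and 64.9 CPM in ctr. The Tcf7-positive values rest on 177 cells in all.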

How the results depend on the processing

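Of the called genes, 43 to 294 were higher and 32 to 257 lower when 1 library was left out, with 75 called in all without cko 3, 108 without cko 1, 187 without ctr 3 and 551 without cko 2. With cko 1 and cko 3 added together 60 were higher and 50 lower, with equal weight per clonotype 54 and 88, and with no filter on low counts 384 and 356. DESeq2 called 131 and 155, and 211 of those 286 were among the 362. Over the named genes and named interaction differences, 1763 single values kept their status, called or not called. A call was lost in 332 and gained in 30, and no gene that was called changed direction. Only 87 of the 139 named genes fitted were called in the main fit. Values not called in either fit are therefore among the 1763. The share of effector cells differed by -0.955 points on full counts, and by 7.56 and 10.3 points after thinning to 2000 and 1000 UMIs. Interaction calls were 1 to 48 against Havcr2-positive, 2 to 6 against Gzmk-positive and 9 to 23 against Tcf7-positive cells with 1 library left out, 2, 3 and 13 with cko 1 and cko 3 added together, and 2 against Gzmk-positive cells with DESeq2 size factors. The difference in expanded clonotypes from Gzmk-positive cells was 2.64 points and -0.376 points with cko 1 and cko 3 added together. Of the 10 leading genes 4 were in myeloid lists, and 1 without doublet candidates, an alternative chosen after seeing the data. Those 4, Lyz2, Apoe, C1qa and Cd14, are among the genes that define the candidates, so their lower levels follow from that definition. The cause of the other moves was not tested.

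Same-numbered cko and ctr samples did not deviate together (correlations -0.0129, 0.0342 and 0.0235). The labels say nothing of pairing, and 3 samples per group are too few for these correlations to settle it. With the replicate block 193 genes were higher and 232 lower. For shares and clonality of cko against ctr no paired analysis was made because the labels give no pairing of the samples. With 3 samples against 3 no exact test can fall below 0.1.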

Other observations

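V gene use of the effector cells varied between libraries. TRBV12-1 was used by 43.0, 1.17 and 35.8% of them in cko replicates 1, 2 and 3, against 8.47, 5.53 and 4.42% in ctr, the high values being those of the libraries that share clones. TRBV19 was used by 0.808, 11.1 and 1.63% in cko, against 12.96, 14.9 and 18.8% in ctr.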
